A study of Homo sapiens with 4 samples.

Results

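The genes described here are 7 interferon regulatory factor (IRF) genes, IRF1, IRF2, IRF3, IRF5, IRF7, IRF8 and IRF9, together with IRF2BP2, which encodes a partner protein of IRF2. They were taken by symbol from the table of counts, with earlier results of these data known, and make up 8 of its 78932 gene rows. All 8 were among the 18680 genes with enough counts to be tested. IRF4 was set apart by the same choice. The study used RPMI 8226, an established multiple myeloma cell line, in which locked nucleic acid (LNA) antisense oligonucleotides were transfected for 72 h. One group of 2 libraries received a control LNA, labelled ASO1, and the other group of 2 libraries received an LNA against the long noncoding RNA LINC01432, labelled ASO3, at 50 nM. No separate dose is given for the control LNA, each group is a single oligonucleotide, and both groups share the transfection, so no untransfected level was measured.

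IRF proteins are transcription factors that bind DNA through a conserved domain near the amino terminus. They recognise repeats of GAAA, found in the interferon-stimulated response element (ISRE). IRF3, IRF5 and IRF7 wait in the cytoplasm and are phosphorylated when a cell senses foreign nucleic acid, after which they switch on interferon genes. Secreted interferons then act through the complex ISGF3, of which IRF9 is the DNA-binding subunit, and through the GAS element, a site that drives IRF1. IRF4 and IRF8 mainly direct the development of B cells, plasma cells and myeloid cells.

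The libraries held 20873393 to 29161298 gene counts. Levels are in CPM, counts per 1000000 counts of the tested genes of a library, scaled with TMM (trimmed mean of M values) factors. Here 3 counts, taken as the smallest level that can be told from 0, were worth 0.103 to 0.140 CPM. LINC01432 fell from 19.2 ± 1.84 to 9.45 ± 0.642 CPM (SD, n = 2 libraries each; adjusted p = 0.000228 by edgeR's quasi-likelihood test with Benjamini-Hochberg adjustment). Plasma cell markers were abundant, with a summed level of 1703 and 1792 CPM in the control libraries over the 7 genes of that list. With LINC01432 LNA the sum was 1682 CPM in library 2 and lower still in library 1. Of these 7 genes CD38 rose (log2 fold change 0.72), and TNFRSF17 and XBP1 fell (-0.53 and -0.36; edgeR adjusted p = 0.000434, 0.00158 and 0.0158), and SDC1 also fell after the correction for GC content described with IRF7. The part of these changes in the results was not tested. Markers of T and NK cells summed to 0.571 to 0.832 CPM over 7 genes, and those of myeloid and dendritic cells to 3.63 to 5.67 CPM over 8 genes, of which LYZ was at 0 in every library. Of 26 marker genes of other lineages 8 were tested, and COL1A1, made by fibroblasts, was the only one of them called (53 and 60 counts in the controls, 74 and 106 with LINC01432 LNA; edgeR adjusted p = 0.0272), and its part in the results was not tested. After GC correction COL1A1 was not called (adjusted p = 0.0631), and the epithelial markers EPCAM and KRT18 were called as lower (-0.24 and -0.30; adjusted p = 0.0382 and 0.0243). In bulk RNA, more RNA per cell and more cells with a gene on cannot be told apart. Separate cultures are not named in the labels, so the p-values speak only of how these libraries vary, and that variation may be technical.

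Across the 8 genes, 4 rose with LINC01432 LNA (IRF7, IRF1, IRF8 and IRF5), 0 fell and 4 did not pass (IRF2, IRF3, IRF9 and IRF2BP2). Here a gene is said to have risen or fallen when its adjusted p over all genes tested was under 0.05. Of all tested genes, 7.5% rose and 4.37% fell by this rule. The median log2 fold change was 0.37 over the 8 genes and 0.01 over all tested genes. In 7 of the 8 genes both LINC01432 LNA libraries lay above both control libraries, and 28.2% of all tested genes had this arrangement. Within the group of 8 the rises were of very unequal size, from 1.31-fold for IRF5 to 2.87-fold for IRF7.

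**Figure D1:**
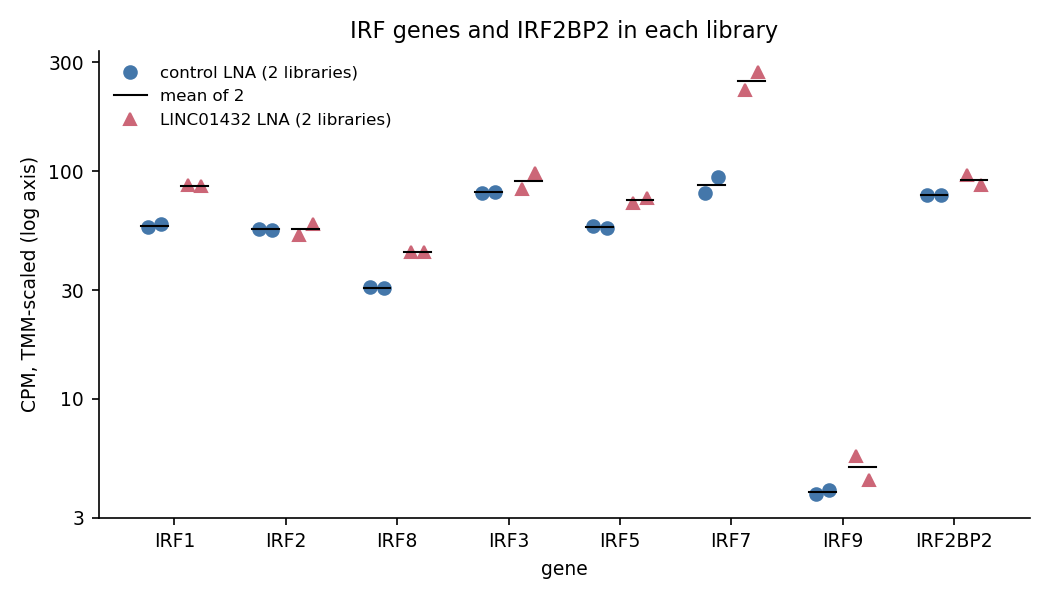
Level of the 8 genes in each library, in CPM scaled with TMM (trimmed mean of M values) factors on a log axis. Circles are the 2 control LNA libraries, triangles the 2 LINC01432 LNA libraries and bars their means; IRF7 stands at 80.0 and 94.2 CPM in the controls and 227 and 273 CPM with LINC01432 LNA, while for IRF2 the groups overlap.

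IRF1 and IRF2 encode an activator and its classical antagonist on the same DNA sites. IRF1 (ENSG00000125347, chromosome 5, 132481609 to 132490798, minus strand, GRCh38) was at 56.9 and 58.5 CPM in control libraries 1 and 2 and at 86.8 and 85.7 CPM in LINC01432 LNA libraries 1 and 2. Both LINC01432 LNA libraries were higher than both controls, and the libraries of a group lay within a few percent of each other. IRF1 rose by a log2 fold change of 0.58 (SE 0.08; edgeR adjusted p = 0.000703). It was called in every alternative fit, from 0.53 to 0.59. Of its exonic bases, 22.0% overlap IRF1-AS1 on the opposite strand, which had 182 and 162 counts in the controls and 162 and 176 with LINC01432 LNA and did not pass (edgeR adjusted p = 0.466). A further overlapping gene, ENSG00000283782, was listed at 0 in every library. The strand setting of the counting is not given, so reads of overlapping genes cannot be told apart, here and for the other overlapping genes.

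IRF2 (ENSG00000168310, chromosome 4, 184387713 to 184474580, minus strand) was at 55.6 and 55.4 CPM in the control libraries and at 52.6 and 58.6 CPM with LINC01432 LNA. One LINC01432 LNA library lay below and the other above both controls. The log2 fold change was 0.00 (SE 0.08, edgeR adjusted p = 0.984), and its sign turned between fits. Other scalings moved it at most to -0.01. The ends of its range were -0.10 without LINC01432 LNA library 2 and 0.06 without library 1. The ratio of IRF1 to IRF2 counts inside a library does not depend on scaling between libraries. It was 1.02 and 1.06 in the controls and 1.65 and 1.46 with LINC01432 LNA, or 1.04 ± 0.0239 against 1.56 ± 0.134 (SD, n = 2). The groups did not overlap, and the two-sided exact permutation p was 0.33, the smallest that 2 libraries against 2 can give.

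The start of IRF1 is shown because it holds the 2 kinds of element through which interferon signalling and NF-kB are known to act on this gene. The sequence runs from base -139 to base -26 relative to the start site at 132490773 in the RefSeq promoter table (GRCh38.p14, chr5:132490799-132490912, minus strand). Capitals mark a GAS match (TTCNNNGAA) at base -124 and a match to the NF-kB consensus at base -50:
IRF1: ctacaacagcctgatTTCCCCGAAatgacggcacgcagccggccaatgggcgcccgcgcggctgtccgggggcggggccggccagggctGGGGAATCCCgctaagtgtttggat
Both strands were searched over 250 bases before to 50 bases after each start, and the 2 matches do not overlap. A GAS match was found in 7.66% of the 35116 windows of this length, an NF-kB match in 11.3% and an ISRE match (GAAANNGAAA) in 3.57%. Of the 8 genes, 5 had windows in the table (IRF1, IRF5, IRF8, IRF9 and IRF2BP2; 10 windows in all). The GAS matches were in the windows of IRF1 and IRF9, the NF-kB match in that of IRF1, and 0 of the 10 windows held the ISRE letters.

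IRF3, IRF5 and IRF7 are the factors activated by nucleic acid sensors, and their fold changes differed widely. IRF7 (ENSG00000185507, chromosome 11, 612553 to 615999, minus strand), the factor that amplifies the interferon response and is itself induced by ISGF3, changed most. Its counts were 2329 and 2312 in the control libraries and 4859 and 6886 with LINC01432 LNA. In CPM it went from 87.1 ± 10.1 to 250 ± 32.7 (SD, n = 2), so the gap between the groups was larger than the difference inside either. The log2 fold change was 1.52 (SE 0.11; edgeR adjusted p = 1.46e-05). By p it ranked 23 of all tested genes, and 1.07% of them had a larger log2 fold change.

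IRF7 is also the most GC-rich of the 8, with 67.2% G and C in its exons, and fold changes followed GC content in these libraries. Genes of the highest GC decile had a median of 0.37 on the log2 scale, and 35.2% of them rose. Over all genes, 1401 rose and 817 fell before a correction for GC content and 985 rose and 1090 fell after it. With this correction IRF7 stood at 0.92 on the log2 scale, or 1.90-fold, still called (edgeR adjusted p = 6.44e-05). The size of its rise thus depends on this correction, and its call and direction did not change in any fit. Without LINC01432 LNA library 2 its log2 fold change was 1.36, and without library 1 it was 1.63.

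**Figure D2:**
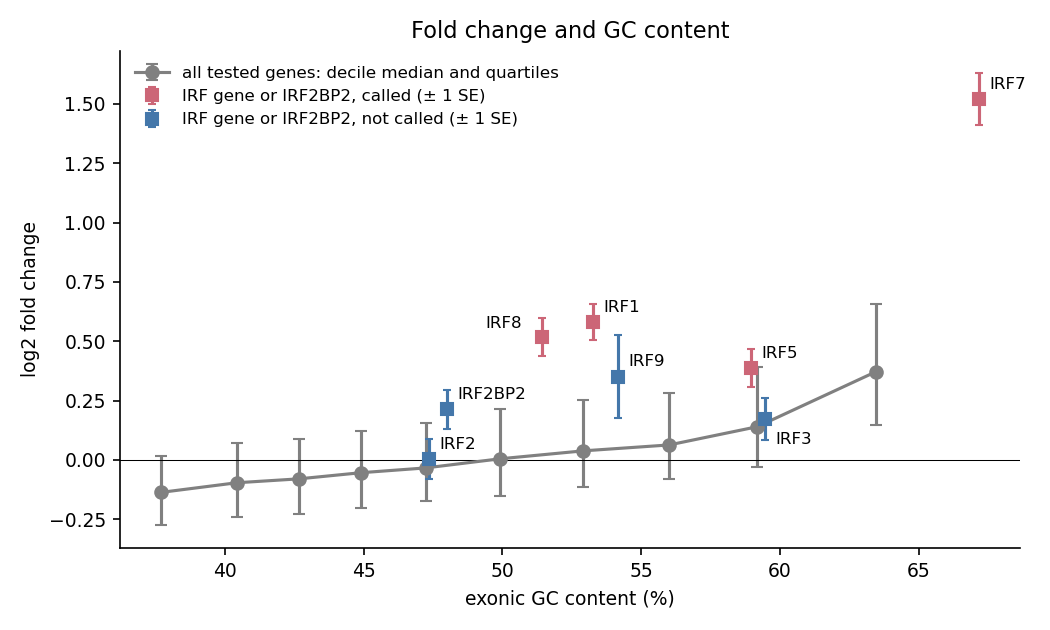
Log2 fold change (LINC01432 LNA against control LNA) plotted against exonic GC content in percent. Grey points are the medians of 10 equal groups of tested genes with bars to the quartiles; squares are the 8 genes with 1 standard error. IRF7 at 67.2% GC lies above the median of 0.37 of the highest decile, while IRF3 at 59.5% GC lies near its decile's median of 0.14.

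IRF3 (ENSG00000126456, chromosome 19, 49659569 to 49665875, minus strand), a latent factor present in most cell types, was at 80.3 and 81.2 CPM in the control libraries and at 83.8 and 98.0 CPM with LINC01432 LNA. Library 2 of the LINC01432 LNA group stood well above the other 3, and library 1 only slightly above the controls. IRF3 did not pass (log2 fold change 0.17, SE 0.09; edgeR adjusted p = 0.263) and stood at -0.01 after GC correction. In the fit that leaves out LINC01432 LNA library 1 it stood at 0.26, and in the fit that leaves out library 2 at 0.04. These fits take their spread from the control pair and assume that the lone LINC01432 LNA library varies like it. Of the exonic bases of IRF3, 19.3% overlap BCL2L12 on the opposite strand. BCL2L12 had 1041 and 860 counts in the controls and 803 and 1104 with LINC01432 LNA, and its log2 fold change of 0.20 also did not pass (edgeR adjusted p = 0.210).

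IRF5 (ENSG00000128604, chromosome 7, 128937612 to 128950035, plus strand), which acts after Toll-like receptors in B and myeloid cells, was at 57.5 and 56.5 CPM in the control libraries and at 72.5 and 76.5 CPM with LINC01432 LNA. The groups were clearly apart, and the rise was 1.31-fold (log2 fold change 0.39, SE 0.08; edgeR adjusted p = 0.00849). The GC-corrected value was 0.23, still called (edgeR adjusted p = 0.0416). The call was lost without control library 1 (0.38, adjusted p = 0.238) and without control library 2 (0.36, adjusted p = 0.251), fits that take their spread from the LINC01432 LNA pair and assume that the lone control varies like it.

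The balance between the induced and the latent sensor factor can be read inside each library. IRF7 counts were 0.996 and 1.16 times those of IRF3 in the controls, and 2.7 and 2.78 times with LINC01432 LNA. This ratio, chosen after its values were seen, rose 2.55-fold, from 1.08 ± 0.117 to 2.74 ± 0.0580 (SD, n = 2; exact permutation p = 0.33). On the log2 scale the fold changes of the 2 genes differed by 1.35, and by 0.93 after GC correction.

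IRF9 encodes the DNA-binding subunit of ISGF3 (ENSG00000213928, chromosome 14, 24161053 to 24166565, plus strand). It had only 111 and 98 counts in the control libraries and 120 and 111 with LINC01432 LNA, or 3.81, 3.99, 5.59 and 4.4 CPM. LINC01432 LNA library 1 was the highest, and library 2 lay close to the controls. IRF9 did not pass (log2 fold change 0.35; edgeR adjusted p = 0.242), and its SE of 0.17 was the largest of the 8 genes. The fit that leaves out LINC01432 LNA library 2 gave 0.50, and the fit that leaves out library 1 gave 0.16. In GENCODE 29, 48.4% of the exonic bases of IRF9 are shared with ENSG00000259529, a gene on the same strand, for which 4 to 8 counts were listed per library. How reads in shared bases were counted is not given, so the level of IRF9 is uncertain.

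A short stretch before the start of IRF9 is shown because it holds the other GAS match. It runs from base -78 to base -40 relative to the RefSeq start at 24161265 (GRCh38.p14, chr14:24161187-24161225, plus strand), with the match in capitals:
IRF9: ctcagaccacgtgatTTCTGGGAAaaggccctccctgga
The match begins at base -63.

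IRF8 (ENSG00000140968, chromosome 16, 85898803 to 85922609, plus strand), a factor of B cell and myeloid development, was at 30.8 and 30.7 CPM in the control libraries and at 44.0 and 44.3 CPM with LINC01432 LNA. The libraries of each group were nearly equal and the groups were far apart. IRF8 rose 1.43-fold (log2 fold change 0.52, SE 0.08; edgeR adjusted p = 0.00189), and by 0.49 after GC correction, still called. Without control library 1 the log2 fold change was 0.50 and just missed the threshold (adjusted p = 0.0539). IRF8 is also made by myeloid cells, whose marker CD14 had 67 and 52 counts in the controls and 58 and 91 with LINC01432 LNA and did not pass (edgeR adjusted p = 0.167). The summed level of the 8 myeloid and dendritic markers was 3.64 and 3.63 CPM in the controls and 4.29 and 5.67 CPM with LINC01432 LNA, and its part in the rise of IRF8 was not tested. The related factor IRF4 was at 779 ± 0.716 CPM in the controls and 788 ± 25.4 CPM with LINC01432 LNA (SD, n = 2), a log2 fold change of 0.02 that did not pass (edgeR adjusted p = 0.934).

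IRF2BP2, which encodes a corepressor that binds IRF2 (ENSG00000168264, chromosome 1, 234604269 to 234609525, minus strand), was at 78.8 and 78.6 CPM in the control libraries and at 96.0 and 86.6 CPM with LINC01432 LNA. Both LINC01432 LNA libraries were above the controls but differed from each other by more than the lower one did from them. IRF2BP2 did not pass (log2 fold change 0.21, SE 0.08; edgeR adjusted p = 0.122). It was called after GC correction (0.24, edgeR adjusted p = 0.0465) and with the replicate number as a block (0.21, edgeR adjusted p = 0.0479). Its log2 fold change was 0.27 without LINC01432 LNA library 2 and 0.12 without library 1. An antisense gene that overlaps 14.7% of its exonic bases, ENSG00000228830, was listed at 0 in every library. With GC correction 5 of the 8 genes rose, where 5.77% of all genes in that fit did, and with the block likewise 5, where 12% did.

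The other genes of the family differed. IRF2BP1 and IRF2BPL, the paralogs of IRF2BP2, both rose. IRF2BP1 went from 18.1 ± 2.01 to 35.1 ± 3.12 CPM (1.94-fold) and IRF2BPL from 65.0 ± 4.53 to 109 ± 5.58 CPM (1.68-fold; SD, n = 2; edgeR adjusted p = 0.000217 and 0.000250). Both are GC-rich, at 68.5% and 62.8%, and after GC correction their log2 fold changes were 0.27 and 0.42 instead of 0.96 and 0.75, still called.

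**Figure D3:**
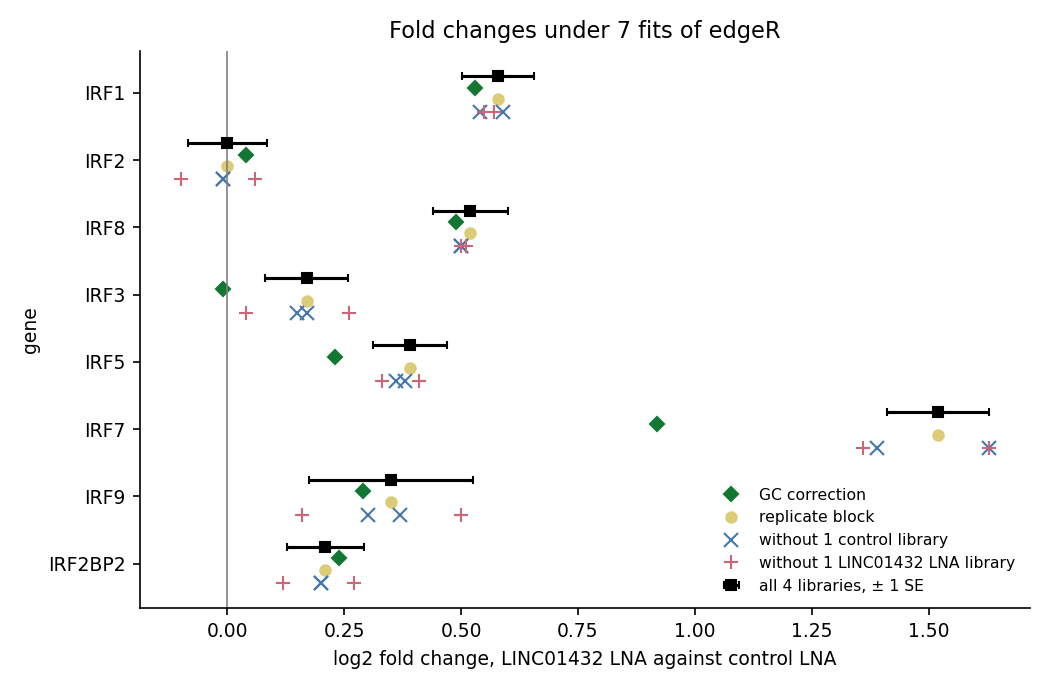
Log2 fold changes of the 8 genes under 7 edgeR fits. Black squares with bars are all 4 libraries with 1 standard error, diamonds the GC-corrected fit, circles the fit with a replicate block, and crosses and plus signs the fits without 1 control or 1 LINC01432 LNA library; IRF7 moves from 1.52 to 0.92 with GC correction, while IRF1 stays between 0.53 and 0.59.

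Levels divided by exonic length can be compared between genes only roughly. The divisor is the length of a gene's annotated exons, 7799 bases for IRF1. The length of the transcripts expressed was not measured. A gene whose expressed transcripts are shorter than its divisor is placed too low. Whether the order holds with expressed lengths was not tested. In the control libraries the order, in CPM per kilobase (mean ± SD, n = 2), began with IRF7 at 33.2 ± 3.83, IRF3 at 21.3 ± 0.160 and IRF2 at 17.8 ± 0.0658. IRF2BP2 followed at 16.7 ± 0.0299 and IRF5 at 13.02 ± 0.157, and IRF1 at 7.39 ± 0.143, IRF8 at 5.96 ± 0.0151 and IRF9 at 1.03 ± 0.0339 came last. No neighbours in this order overlapped between libraries, which speaks of the variation between libraries and not of the choice of length. With LINC01432 LNA IRF7 stood at 95.0 ± 12.5 CPM per kilobase, far above IRF3 at 24.0 ± 2.64. IRF2BP2 at 19.3 ± 1.41, IRF2 at 17.8 ± 1.37 and IRF5 at 17.03 ± 0.655 came next. The libraries of IRF2 overlapped those of IRF2BP2 and of IRF5, so its place is not resolved. IRF2BP2 lay above IRF5 without overlap. IRF1 at 11.1 ± 0.101 and IRF8 at 8.55 ± 0.0452 kept their places above IRF9 at 1.32 ± 0.223. Dividing the same CPM by only the exonic bases shared with no other gene assumes that no read in shared bases was counted. In the controls this put IRF2BP2 at 19.5 CPM per kilobase, above IRF2 at 17.8, and IRF9 at 2.00.

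For each gene that rose, the nearest profiles over the 4 libraries were looked up among 10125 other genes with a symbol and at least 5 CPM, by Euclidean distance of mean-centred log2 CPM. These are descriptions of 4 points that share a treatment. Nearest to IRF7 were IGFBP4 (distance 0.03), TYMP (0.11) and EGR1 (0.13). Nearest to IRF1 were PARP16, KDM6B and ZNF444, each at 0.04. Nearest to IRF8 were H2AC21 (0.02), ZFP36 (0.03) and KDM6B (0.04), so that KDM6B was close to both, and nearest to IRF5 were DHRS3 (0.01), ANXA2R-OT1 (0.02) and TNIP1 (0.02).

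Most genes that switch the sensor-activated IRF proteins on did not pass, and neither did most of all tested genes (16462 of 18680). Of 19 adaptors and kinases upstream of IRF3, IRF5 and IRF7, 3 rose and 1 fell, 15 not passing, and the median log2 fold change was 0.06. Over all tested genes the shares were 7.5% rising and 4.37% falling. TICAM1, the adaptor of Toll-like receptor 3, rose from 35.5 ± 0.750 to 56.6 ± 4.35 CPM (1.60-fold; edgeR adjusted p = 0.000556). Its log2 fold change went from 0.68 to 0.33 with GC correction, still called. IKBKE, a kinase of IRF3 and IRF7, and MYD88, the adaptor upstream of IRF5 and IRF7, rose 1.37-fold and 1.33-fold (adjusted p = 0.00707 and 0.0141). MAVS, the adaptor of the RNA sensors RIG-I and MDA5, was the gene that fell, from 165 ± 3.79 to 136 ± 4.57 CPM (adjusted p = 0.0382). Without control library 1 or without control library 2, IKBKE (adjusted p = 0.123 and 0.106), MYD88 (0.30 and 0.102) and MAVS (0.528 and 0.404) were not called. After GC correction 3 rose and 3 fell, where 985 rose and 1090 fell of the 17060 genes in that fit.

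Of the genes for interferon receptors and the partners of IRF9, STAT2, a subunit of ISGF3, was at 61.0 ± 4.54 CPM in the controls and 76.5 ± 9.19 CPM with LINC01432 LNA (SD, n = 2) and just missed the threshold (log2 fold change 0.33, edgeR adjusted p = 0.0513). It was called in 7 of 13 alternative fits, among them GC correction (adjusted p = 0.0413). The receptor gene IFNAR1 had a log2 fold change of -0.27 that did not pass (adjusted p = 0.0650). It was called as lower with the replicate block (adjusted p = 0.00904), also together with GC correction (0.0488), and STAT2 as higher with the block (0.00110). Without LINC01432 LNA library 1 the log2 fold changes of STAT2 and IFNAR1 were 0.43 and -0.37. Without library 2 they were 0.18 and -0.20. These fits, counted among the alternative ones, take their spread from the control pair and assume that the lone library varies like it.

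Of 21 interferon genes, 5 had enough counts to be tested and 10 were at 0 in every library. Of those tested, 3 rose. A gene that passed the filter on low counts only through the group where it is high was picked for being higher there, whether or not it is called. The number of rises among these genes therefore supports nothing. IFNL1, a type III interferon gene, had 9 and 10 counts in the controls and 40 and 73 with LINC01432 LNA (edgeR adjusted p = 0.000735). IFNB1, the classical target of IRF3 and IRF7, had 2 and 4 counts in the controls and 15 and 12 with LINC01432 LNA (adjusted p = 0.0250). IFNL2, whose sequence is nearly identical to that of IFNL3 so that reads may be split, had 8 and 7 against 17 and 30 (adjusted p = 0.0183). Without control library 1 or without control library 2, IFNB1 (adjusted p = 0.407 and 0.106) and IFNL2 (0.150 and 0.0835) were not called. The same held for IFNB1 without LINC01432 LNA library 1 (0.0833) and for IFNL2 without library 2 (0.0816).

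Of 30 ISRE-driven targets of ISGF3 and IRF3, 25 rose and 0 fell, 5 not passing, and the median log2 fold change was 0.76. Among all tested genes 7.5% rose and 4.37% fell. CXCL10, IFIT2 and IFIT3 had the smallest p, with log2 fold changes of 3.56, 1.98 and 1.78. Of 24 tested IRF1 targets, 15 rose and 0 fell, 9 not passing, and the median was 0.54. GBP4, a guanylate-binding protein gene, CXCL9, a chemokine gene, and SOCS1, an inhibitor of JAK kinases, rose 6.35-fold, 5.42-fold and 3.71-fold (edgeR adjusted p from 1.86e-06 to 2.48e-05). After GC correction SOCS1 had a log2 fold change of 1.19 instead of 1.89, still called. Fewer IRF1 targets rose without control library 1, as among all tested genes. The lists share no gene, but interferons act on many genes of both through more than 1 factor.

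**Figure D4:**
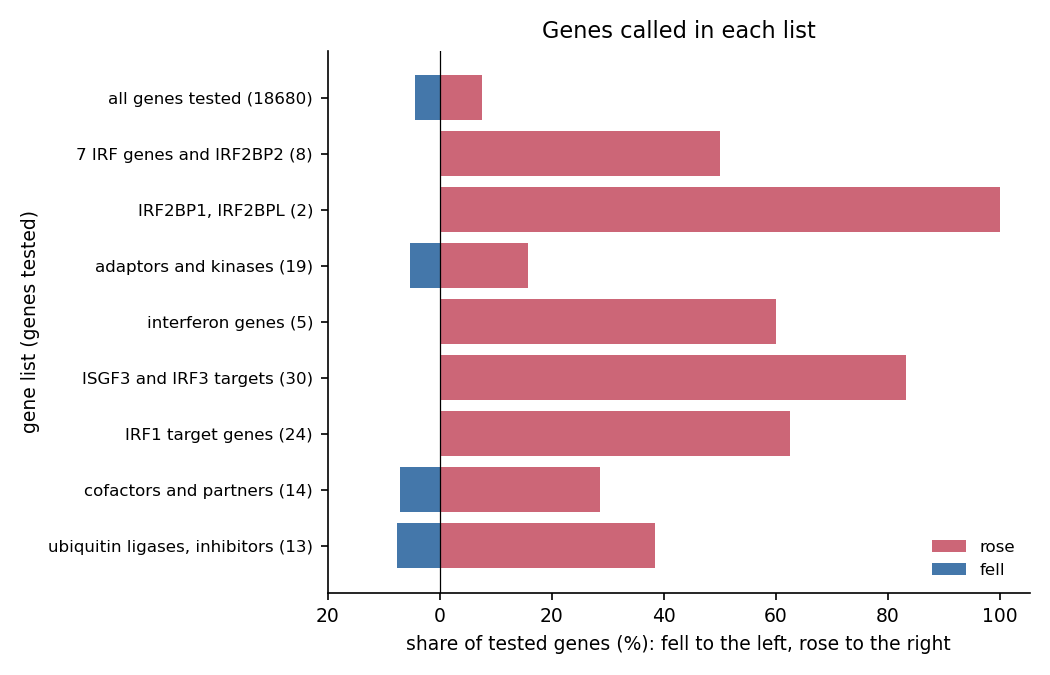
Share of the tested genes of each list that rose (right) or fell (left) by edgeR at an adjusted p under 0.05, in percent, with the number tested in brackets. All tested genes are at the top with 7.5% rising and 4.37% falling; 25 of 30 ISGF3 and IRF3 targets rose, and 3 of 19 adaptors and kinases.

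Of 14 genes for cofactors and partners of IRF proteins, 4 rose and 1 fell, 9 not passing, and the median log2 fold change was 0.12. Over all tested genes the shares were 7.5% rising and 4.37% falling. JUNB and BATF2, AP-1 family factors, rose from 27.6 ± 1.28 to 60.3 ± 4.38 CPM and from 2.64 ± 0.767 to 5.43 ± 0.164 CPM (SD, n = 2; edgeR adjusted p = 2.78e-05 and 0.00654). After GC correction JUNB had a log2 fold change of 0.67 instead of 1.13, still called. VGLL4, which binds IRF2BP2, rose 1.28-fold (adjusted p = 0.0141). SPI1, the ETS factor PU.1 that binds DNA with IRF8 and IRF4, was the gene that fell, from 39.0 ± 1.39 to 29.6 ± 3.26 CPM (adjusted p = 0.0204). Its GC-corrected log2 fold change was -0.69, against -0.40 before. SPI1 (adjusted p = 0.0918 and 0.197) and VGLL4 (0.409 and 0.181) were not called without control library 1 or without control library 2, nor BATF2 without control library 1 (0.0724). Fewer of the list rose without control library 1 and more without either LINC01432 LNA library, as among all tested genes.

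Of 13 ubiquitin ligases and inhibitors known to act on IRF proteins, 5 rose and 1 fell, 7 not passing, and the median was 0.08. Among all tested genes 7.5% rose and 4.37% fell. RBCK1 and PELI1, ubiquitin ligases, rose 1.74-fold and 1.59-fold (edgeR adjusted p = 0.000293 and 0.000417). RBCK1 went from 0.80 to 0.51 on the log2 scale with GC correction, still called. STUB1, another ligase, rose 1.47-fold, but its log2 fold change went from 0.55 to 0.05 after GC correction and was no longer called (adjusted p = 0.665), and 42.4% of its exonic bases overlap other genes. NR3C1, the glucocorticoid receptor, was the gene that fell, from 109 ± 1.44 to 85.3 ± 9.51 CPM (adjusted p = 0.0241). It was not called without control library 1 (adjusted p = 0.267), without control library 2 (0.201) or with library totals as the only scaling (0.0520). After GC correction 3 of the list rose, where 5.77% of all genes in that fit did. Fewer of the list rose without control library 1, as among all tested genes.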

How the data were processed

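Each library was placed by its title, and replicate numbers come from the same titles. The authors deposited raw counts per gene. The tools named, per the submitters' processing notes, include Salmon 1.10.0, featureCounts 2.0.8 and STAR 2.7.11b, with GRCh38 as the build and no role for each. No annotation release or strand setting was found in the labels or headers. Per the labels' protocols ribosomal RNA was removed by RNase H, whereas the design text names poly(A) selection. Rows of spike-in (92) and transgene (5) sequences, each at most 3.44e-05% of a library, were left out.

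Symbols matched 61481 of 78932 gene IDs, and 57356 were in GENCODE 29 (GRCh38), the source of positions, exonic length, GC content and overlaps. Counts were tested with edgeR 4.0.16 (R 4.3.3): TMM scaling, filterByExpr (minimum count 10, total 15), quasi-likelihood F test, group as the only term, Benjamini-Hochberg adjustment over all genes tested. Standard errors were derived from the F statistic. No 2 libraries were identical. The GC correction entered each library's lowess trend (span 0.3) of log2 CPM on exonic GC content as an offset, rescaled by TMM. The edgeR step was tested on simulated data. Other alternatives were other scalings and filters, each library left out, the replicate number as a block, DESeq2 1.42.0, limma-voom (limma 3.58.1) and an adjusted p under 0.01.

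All 8 genes are named. Of each list the text names the 3 genes with the smallest p, and genes that overlap a member; some items are not reported here. Single genes that fell, the named marker genes and the ratio of IRF7 to IRF3 were chosen after their values were seen. The genes and lists were chosen with earlier results of these data known. Promoter windows and sequences are from RefSeq (GRCh38.p14). Other marker lists were epithelial genes, at 99.2 to 118 CPM in sum, and fibroblast and endothelial genes, at 4.61 to 7.49 CPM.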

Additional observations from a re-analysis of the deposited data

How the results depend on the processing

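IRF7 and IRF1 were called as higher in all 14 fits. Leaving out 1 library gave 2 to 6 rises among the 8 genes and 766 to 5228 called genes in all, against 4 and 2218 with all libraries. Such a fit has 1 library in a group and assumes that it varies like the other pair. The control pair had 3.85 times the variance of counting, and the LINC01432 LNA pair 12.4 times. The number of called genes was 3862 with the replicate block, 3754 with GC correction and the replicate block, and 1000 at an adjusted p under 0.01. The split was 1401 higher and 817 lower in the main comparison and 985 higher and 1090 lower after GC correction. IRF2 had a log2 fold change of -0.01 with the median of ratios, without a filter, with DESeq2 and without either control library, -0.00 with library totals only and -0.10 without LINC01432 LNA library 2 (range -0.10 to 0.06 over the left-out libraries). IRF3 was at -0.01 with GC correction, with or without the block; the cause was not tested. Of 104 further fits of single genes among the 8, 86 kept their side of the threshold and direction. Of the list counts, 160 of 206 stayed within 1.5 times. The deviations of same-numbered libraries from their group means correlated over 10182 genes (r = 0.248), but 2 pairs and the titles do not show that the numbers pair the libraries; the replicate block added IRF2BP2 to the rises. DESeq2 gave no adjusted p for the interferon genes. Depth limits IRF9 most, at 98 to 120 counts per library.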
